A study of Arabidopsis thaliana with 24 samples.

Results

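PYK10 and JAL22 encode partner proteins of an Arabidopsis defence system, and each was read by 1 probe set on the Affymetrix ATH1 microarray. The probe sets were those that the platform table links to either gene, which gave 2 of the 13356 genes that had a probe set naming them alone. PYK10 is locus AT3G09260 and JAL22 is locus AT2G39310, and both probe sets passed the filter on low signals. The genes were chosen by their signals in csn mutants and wild type, both being lower in the mutants in light and in darkness, so that difference is described here without a test.

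RNA came from whole seedlings of Arabidopsis thaliana at 7 days of age, raised either in light or in darkness, with 3 arrays in each of 8 groups. In light and in darkness alike, the groups were csn3-1 (csn3), csn4-1 (csn4), a line labelled csn5 (csn5a-2 csn5b) and wild type (WT) of the Columbia background, and the WT light arrays carry the name of the csn4-1 experiment in their labels. The series describes the 3 arrays of a group as independent biological replicates, with about 80 mg of seedlings and about 6 µg of RNA behind each. Each mutant is 1 line mutated in the whole plant, so no organ or cell type was targeted. The mutated genes encode COP9 signalosome subunits, and the csn5 label names mutations in both CSN5A and CSN5B.

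PYK10, also called BGLU23, is a beta-glucosidase stored in ER bodies, which are rod-shaped outgrowths of the endoplasmic reticulum found in the epidermis of seedlings and in roots of the cabbage family. When cells break, PYK10 meets its substrates, among them indole glucosinolates, and joins cytosolic lectins and lipase-like proteins in a large aggregate, the PYK10 complex. JAL22 is a jacalin-related lectin, a sugar-binding protein known from that complex, where some jacalin-related lectins enlarge the aggregate and others limit its size. The COP9 signalosome removes the ubiquitin-like protein NEDD8 from cullin ubiquitin ligases, and its mutants develop in darkness with features of light-grown seedlings. Values below are MAS5 signals on a linear scale after each array was set to the same trimmed mean, and log2 differences were taken after adding 50, which understates the change of dim probe sets. No signal of 1 probe set is set against that of another, since probes differ in brightness.

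Several properties of the arrays bear on these values. The probe set of CSN5B, 1 of the 2 genes for the mutated CSN5 subunit, was higher and not lower in the arrays labelled csn5, at 805 ± 134 against 118 ± 6.82 in WT in light, and at 1753 ± 165 against 140 ± 32.1 in WT in darkness (SD, n = 3 each), so these arrays are called csn5-labelled. The 3′ over 5′ signal ratio of the GAPDH control, a measure of RNA integrity, ran from 6.82 to 8.87 in csn3, from 6.49 to 130 in csn4, from 3.31 to 4.67 in csn5-labelled and from 2.27 to 2.38 in WT light arrays. In darkness it ran from 7.74 to 24.6 in csn3, from 14.4 to 27.5 in csn4, from 4.35 to 7.42 in csn5-labelled and from 2.43 to 19.7 in WT. The 25S rRNA control ran from 13702 to 32741 over mutant light arrays, against 1030 to 5330 in WT light. In darkness it ran from 304 to 32334 in mutants, against 352 to 744 in WT. The median scaled signal was 194 to 245 in mutant light arrays and 181 to 185 in WT light. The part of these differences was not tested. The csn4 light and WT light arrays belong to an earlier accession range than the other 18 arrays, so light against darkness in csn4 and WT, every interaction with light, and in light the csn3 and csn5-labelled differences from WT and from csn4 cross that boundary, and within csn4 and WT the range and the light condition cannot be told apart.

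In light-grown seedlings the PYK10 signal was lower in all 9 mutant arrays than in all 3 WT arrays. PYK10 had signals of 6168, 7441 and 6082 in the csn3 arrays, of 4414, 4832 and 6392 in the csn4 arrays, and of 4533, 5224 and 4858 in the csn5-labelled arrays, against 16022, 16005 and 16784 in WT light arrays. The lowest WT array was 2.15 times the highest mutant array, and the mutant mean was 34.1% of the WT mean. On the log2 scale the difference from WT was -1.31 ± 0.17 in csn3, -1.65 ± 0.17 in csn4 and -1.73 ± 0.17 in csn5-labelled seedlings, and -1.56 ± 0.14 for the mean of the 3 mutants (SE of the fit). Of these, the csn4 difference lies within 1 accession range, and the part of the range in the others was not tested.

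In darkness PYK10 was again lower in all 9 mutant arrays than in any WT array. The csn3 dark arrays gave PYK10 signals of 6596, 5963 and 6209, the csn4 dark arrays 4253, 6344 and 4490, and the csn5-labelled dark arrays 8539, 8368 and 6636, against 20177, 22898 and 24448 in WT dark arrays. The mutant mean was 28.3% of the WT mean, and the lowest WT array was 2.36 times the highest mutant array. The log2 differences from WT were -1.84 ± 0.17 in csn3, -2.17 ± 0.17 in csn4 and -1.52 ± 0.17 in csn5-labelled seedlings, with -1.84 ± 0.14 for the mean of the 3 mutants. The lowest PYK10 signal of any mutant array, in light or darkness, was 4253.

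JAL22 was lower by more than an order of magnitude. In light the csn3 arrays gave signals of 83.8, 67.4 and 172, the csn4 arrays 85.6, 14.0 and 79.9, and the csn5-labelled arrays 38.6, 58.7 and 121, against 3148, 3450 and 3218 in WT arrays. Of the 9 mutant light arrays, 7 read below 100, the level used here as the filter for dim probe sets, while no WT array came near it. With mutant arrays under 100 counted as 100, JAL22 was at least 29.7-fold lower in the mutants by group means, and the lowest WT array was 18.3 times the highest mutant array. The log2 difference was -4.45 ± 0.39 in csn3, -5.00 ± 0.39 in csn4, -4.81 ± 0.39 in csn5-labelled seedlings and -4.75 ± 0.32 for the mean of the mutants, sizes that depend on the 50 added, since the mutant signals are close to it.

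In darkness the JAL22 contrast was of the same kind, from a higher WT level. The csn3 dark arrays gave JAL22 signals of 273, 257 and 95.9, the csn4 dark arrays gave 88.2, 331 and 262, and the csn5-labelled dark arrays gave 171, 403 and 83.5, against 11118, 12214 and 12067 in WT dark arrays. In 3 of the 9 mutant dark arrays the signal was under 100, 1 in each mutant. Counted in the same way, JAL22 was at least 53.2-fold lower in the mutants, and the lowest WT array was 27.6 times the highest mutant array. The log2 differences were -5.60 ± 0.39 in csn3, -5.54 ± 0.39 in csn4, -5.64 ± 0.39 in csn5-labelled seedlings and -5.60 ± 0.32 for the mean of the mutants.

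**Figure D1:**
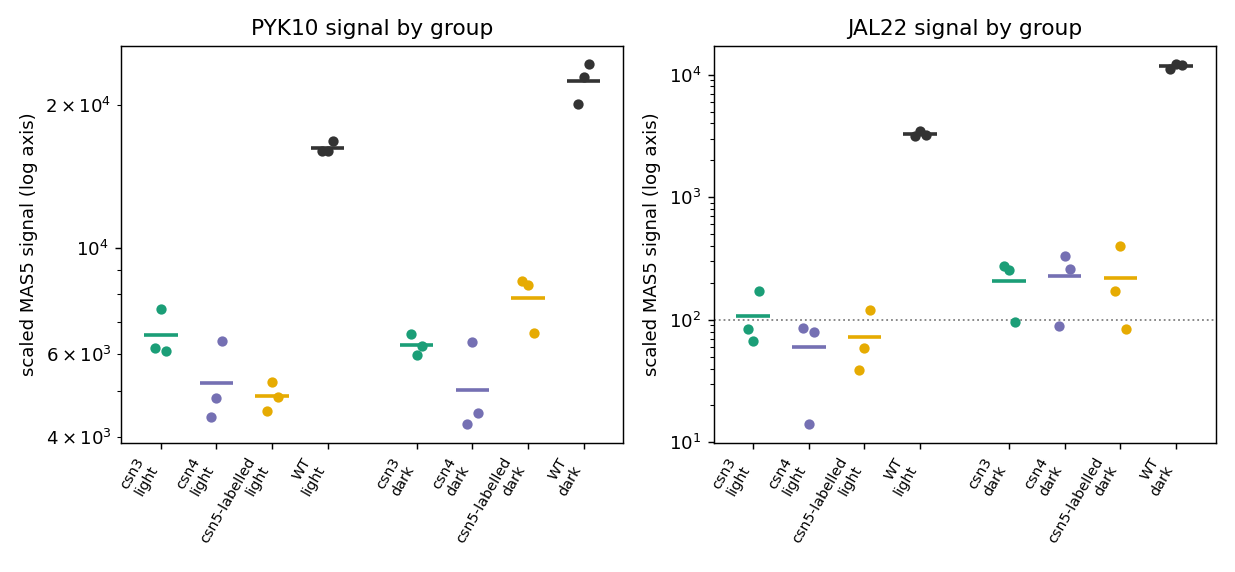
Scaled signal of PYK10 (left) and JAL22 (right) on a log axis, by genotype and growth condition; points are single arrays (3 per group), bars are group means, and the dotted line in the JAL22 panel marks a signal of 100. All 9 mutant arrays lie below all 3 WT arrays in light and in darkness for both genes, and 7 of the 9 JAL22 mutant light arrays lie under the dotted line.

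The share of all tested probe sets with every mutant array below every WT array was 17.1% in light and 15.8% in darkness, so such a separation was common on these arrays. A call, defined as a limma adjusted p under 0.05 together with a log2 change of 1 or more in either direction, was made for 20.6% of tested probe sets for the mean of the mutants in light and for 25.2% in darkness. Because this contrast chose PYK10 and JAL22, nothing is read from their place within those shares.

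Both differences were also computed with the GAPDH ratio as a covariate and without the 3 arrays whose ratio exceeded 20. With the covariate, the PYK10 mean difference was -1.49 in light and -1.80 in darkness, and the JAL22 mean difference was -4.64 in light and -5.54 in darkness. In light every WT array (ratio 2.27 to 2.38) lay below every mutant array (3.31 or more). The covariate therefore cannot separate RNA integrity from genotype in light. Without the 3 arrays, the values were -1.55 and -1.83 for PYK10 and -4.64 and -5.71 for JAL22, in light and in darkness in that order. One WT dark array had a ratio of 19.7, above those of all csn5-labelled arrays, and its signals were 22898 for PYK10 and 12214 for JAL22, against 20177 and 24448 for PYK10 and 11118 and 12067 for JAL22 in the other WT dark arrays. Those other WT dark arrays had ratios of 2.43 and 4.28, below every mutant dark array (4.35 or more). The part of RNA integrity in the differences was not tested beyond these values.

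**Figure D2:**
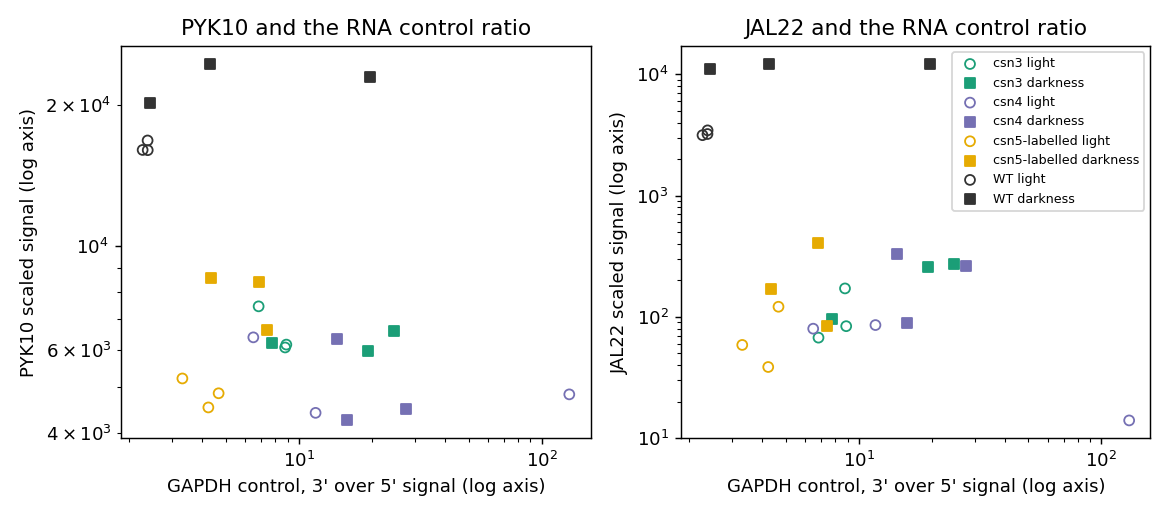
Scaled signal of PYK10 (left) and JAL22 (right) against the 3′ over 5′ ratio of the GAPDH control, both on log axes, for 24 arrays; colours are genotypes, open circles light and filled squares darkness. The WT dark array at a ratio of 19.7 has PYK10 at 22898 and JAL22 at 12214, and the csn4 light array at a ratio of 130 holds the lowest JAL22 signal, 14.0. In light all WT arrays lie at lower ratios than all mutant arrays.

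Roots are a main site of PYK10, and the seedlings were taken whole, so in these bulk samples fewer cells of a type and less RNA per cell cannot be told apart. Of 19 root marker genes, 5 had a probe set of their own. Their summed signal ran from 982 to 1137 in csn3, from 538 to 1199 in csn4 and from 362 to 527 in csn5-labelled light arrays, against 1734 to 1960 in WT light arrays. In darkness it ran from 927 to 1073 in csn3, from 776 to 1012 in csn4 and from 450 to 720 in csn5-labelled arrays, against 4193 to 7177 in WT, and no marker value was 0 in any group. In the mean of the mutants, 3 of the 5 root markers were called lower in light and 4 of 5 in darkness, with medians of -1.11 and -2.35 over the 5, where 9.21% of all tested probe sets were called lower in light and 11.7% in darkness. The light count was 5 with a pseudocount of 16, was 2 with the GAPDH or the actin covariate, and ran from 2 to 4 when single arrays were left out, being 2 without csn3 light array 2. Among these markers EXPA18 and EXPA7 were dim in the mutants. Of 9 mutant arrays per condition, EXPA18 was under 100 in 8 in light and 9 in darkness, and EXPA7 in 9 and 7. Both passed the filter on low signals only with the WT arrays, where they were higher, so these counts are a description. The summed root markers, like PYK10 and JAL22, were lower in mutants than in WT and, within WT, lower in light than in darkness. Among the mutants the orders of the root sums and of PYK10 were the same in light and differed in darkness. In light both fell from csn3 through csn4 to csn5-labelled arrays. The median sums were 1029, 737 and 414, and the PYK10 means were 6564, 5213 and 4872. In darkness the csn5-labelled arrays had the lowest sums, 450 to 720, but the highest PYK10 mean of the mutant groups, 7848. The part of the root markers in the result was not tested. Of 10 leaf markers, 7 were measured, and their sum ran from 28970 to 48080 over the mutant light arrays, against 105081 to 114809 in WT light, and from 25635 to 48689 over the mutant dark arrays, against 21271 to 26558 in WT dark. In the mean of the mutants 5 of the 7 leaf markers were called lower in light (median -1.62), and in darkness 3 were called higher and 1 lower (median 0.57). Of all tested probe sets 9.21% were called lower in light, and 13.5% higher and 11.7% lower in darkness. The part of the leaf markers was not tested either. Of 6 markers of the epidermis and stomatal lineage, 2 were measured, with summed signals of 137 to 299 over the mutant light arrays against 332 to 404 in WT light, and of 74.9 to 407 over the mutant dark arrays against 67.1 to 141 in WT dark. These were FMA and SPCH of the stomatal lineage, so the epidermis at large was not read. Both had means under 100 in WT dark, csn5-labelled dark, csn3 light and csn5-labelled light.

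The response to light was not used to choose the genes, although it shares its arrays with the contrasts that did. In WT seedlings JAL22 fell to a mean of 3272 ± 158 in light, against 11800 ± 595 in darkness (SD, n = 3 each), and no light array reached the dark arrays. The WT light mean was 27.7% of the dark mean, a log2 difference of -1.83 ± 0.39 (limma adjusted p = 0.000436). Calls in this contrast were made for 19.2% of tested probe sets, 9.77% of all as lower in light. PYK10 was 16270 ± 445 in WT light and 22508 ± 2162 in WT darkness, also without overlap, and its log2 difference of -0.46 ± 0.17 had a limma adjusted p of 0.0397 but did not reach the size for a call. In WT, 28.4% of tested probe sets had all light arrays below all dark arrays.

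In the mutants PYK10 passed the p threshold between light and darkness in csn5-labelled seedlings alone, and differences between the mutants in that response were not tested. In csn3 PYK10 averaged 6564 ± 761 in light and 6256 ± 319 in darkness, a log2 difference of 0.06 with a 95% interval of -0.29 to 0.42 (limma adjusted p = 0.893). In csn4 the means were 5213 ± 1042 in light and 5029 ± 1145 in darkness, a difference of 0.06 with an interval of -0.30 to 0.41 (limma adjusted p = 0.877). The arrays of light and darkness overlapped in both lines, and the intervals exclude a change past the size for a call in either direction. In csn5-labelled seedlings PYK10 was 4872 ± 346 in light and 7848 ± 1053 in darkness, with no overlap and a difference of -0.68 ± 0.17 (limma adjusted p = 0.0128), which passed the p threshold without reaching the size for a call. In csn5-labelled seedlings 16.6% of tested probe sets had all light arrays below all dark arrays, and the share called was 0.880% in csn3 and 3.82% in csn5-labelled seedlings, 1.38% of all as lower. The csn3 and csn5-labelled comparisons each lie within 1 accession range.

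JAL22 had a lower mean in light in every line. In csn4 it averaged 59.8 ± 39.8 in light and 227 ± 125 in darkness (SD, n = 3 each), and the difference of -1.29 ± 0.39 was called lower (limma adjusted p = 0.0352), where 3.49% of tested probe sets were called and 1.36% were called lower. The arrays did not overlap, as for 11.1% of tested probe sets in csn4, but the highest light array at 85.6 was close to the lowest dark array at 88.2, and the call rested on single arrays. Without the 3 arrays of GAPDH ratio above 20, which include the csn4 light array at 14.0, the difference was -0.79 (limma adjusted p = 0.266). In csn3 JAL22 was 108 ± 56.0 in light and 209 ± 97.9 in darkness, a difference of -0.68 with an interval of -1.48 to 0.11 (limma adjusted p = 0.409). In csn5-labelled seedlings it was 72.8 ± 43.1 in light and 219 ± 165 in darkness, a difference of -1.01 with an interval of -1.81 to -0.21 (limma adjusted p = 0.0981).

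**Figure D3:**
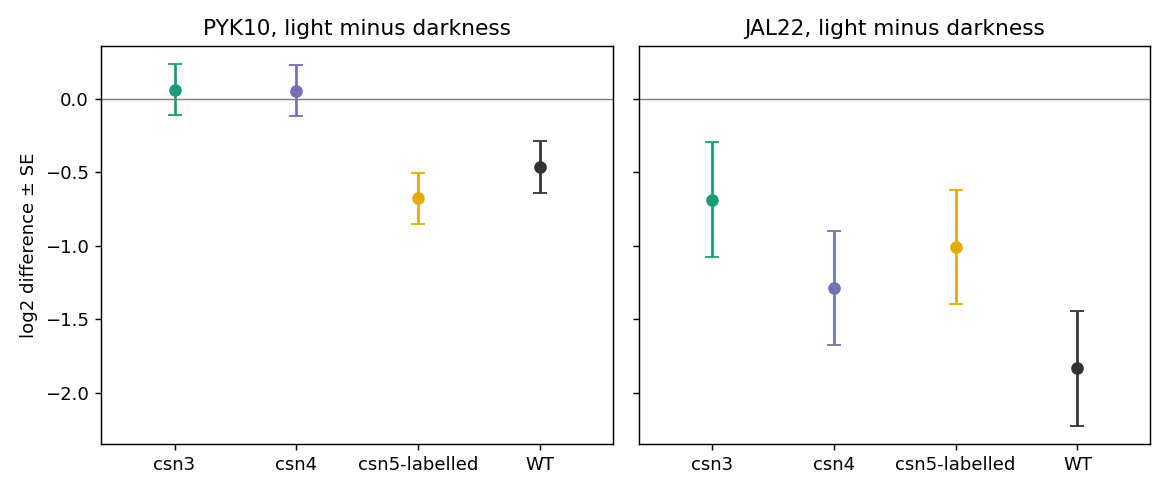
Log2 difference of light minus darkness in each genotype for PYK10 (left) and JAL22 (right), with the standard error of the fit (3 arrays per group and condition). In WT, JAL22 lies at -1.83 and PYK10 at -0.46, while PYK10 lies at 0.06 in csn3 and in csn4 and at -0.68 in csn5-labelled seedlings.

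Whether the light response differed between a mutant and WT was tested by an interaction term, and neither gene passed in any mutant. For PYK10 the interaction was 0.53 in csn3 (interval 0.02 to 1.03, limma adjusted p = 0.147), 0.52 in csn4 (interval 0.01 to 1.02, limma adjusted p = 0.139) and -0.21 in csn5-labelled seedlings (interval -0.72 to 0.29, limma adjusted p = 0.600). For JAL22 it was 1.15 in csn3 (interval 0.02 to 2.28, limma adjusted p = 0.159), 0.55 in csn4 (interval -0.58 to 1.68, limma adjusted p = 0.545) and 0.83 in csn5-labelled seedlings (interval -0.30 to 1.96, limma adjusted p = 0.304). At an unadjusted p under 0.05 stood 3 of the 6 interactions, those of PYK10 in csn3 and csn4 and that of JAL22 in csn3. The intervals for JAL22 are wide, and a positive value here means that the mutant lost less signal in light than WT did. Interactions were called for 16.2% of tested probe sets in csn3, 18.2% in csn4 and 20.8% in csn5-labelled seedlings.

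Between mutants, 6 pairs were compared for each gene, 3 in light and 3 in darkness, 12 in all, and no pair was called by limma, with 2 at an unadjusted p under 0.05 (PYK10, csn3 against csn5-labelled in light and csn4 against csn5-labelled in darkness). In light the PYK10 differences were 0.34 for csn3 minus csn4 (interval -0.02 to 0.70), 0.42 for csn3 minus csn5-labelled (interval 0.06 to 0.78, limma adjusted p = 0.405) and 0.08 for csn4 minus csn5-labelled (interval -0.28 to 0.44). In darkness they were 0.33 for csn3 minus csn4 (interval -0.02 to 0.69) and -0.32 for csn3 minus csn5-labelled (interval -0.67 to 0.04). The dark difference of csn4 minus csn5-labelled was -0.65 ± 0.17 (limma adjusted p = 0.0370), under the size for a call. The 6 JAL22 differences ran from -0.18 for csn4 minus csn5-labelled in light to 0.54 for csn3 minus csn4 in light, each with an SE of 0.39, and in light the intervals of csn3 minus csn4 (-0.26 to 1.34) and of csn3 minus csn5-labelled (-0.44 to 1.16) reach past the size for a call. Among all tested probe sets, calls in light were made for 0.0213% in csn3 against csn4, 0.384% in csn3 against csn5-labelled and 1.93% in csn4 against csn5-labelled, and in darkness for 0.448%, 0.341% and 1.97% in the same pairs.

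Ordered by mean signal, both genes were highest in WT darkness, next in WT light, and lower in all 6 mutant groups. For PYK10 the order among mutants was csn5-labelled dark, csn3 light, csn3 dark, csn4 light, csn4 dark and csn5-labelled light, and for JAL22 it was csn4 dark, csn5-labelled dark, csn3 dark, csn3 light, csn5-labelled light and csn4 light. Each neighbouring pair of mutant groups in these orders overlapped in its arrays, whereas the WT groups were apart from each other and from the highest mutant group. Over the 18 mutant arrays the log2 signals of the genes had Pearson's r = 0.42 and Spearman's rho = 0.25, and r = 0.41 without the 2 arrays farthest from the median of PYK10. The deviations from group means over 24 arrays gave r = 0.39 and rho = 0.29. These points share libraries and array scaling, and they are given as a description.

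Other proteins of ER bodies and of the PYK10 complex were read through a list of 22 genes, of which 8 had their own probe set and 6, PYK10 and JAL22 included, were tested. PYK10 and JAL22 were chosen on the contrast of mutants with WT and are left out of the counts. Of the other 4, in the mean of the mutants 3 were called lower in light and 4 in darkness, and none was called higher. Over all tested probe sets 9.21% were called lower in light and 11.7% in darkness. The median log2 difference of the 4 was -1.78 in light and -2.77 in darkness, beside 0.18 and 0.18 over all tested probe sets. JAL23 and AT1G54020, a lipase-like gene of the list, were too dim to test, with 2 arrays and 0 arrays of 24 reaching a signal of 100.

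NAI1 is the transcription factor required to form ER bodies, and NAI2 is an ER body protein needed for their assembly. NAI1 had signals of 205, 206 and 145 in the csn3 arrays, of 125, 290 and 129 in the csn4 arrays, and of 107, 72.1 and 27.1 in the csn5-labelled arrays in light, against 203, 270 and 208 in WT light, where the groups overlapped and the mean difference of -0.61 ± 0.27 did not pass (limma adjusted p = 0.0661). That difference was -0.95 with the GAPDH covariate (limma adjusted p = 0.0145) and -0.72 without the 3 arrays of high ratio (limma adjusted p = 0.0104), both under the size for a call. In darkness NAI1 had 130, 173 and 177 in the csn3 arrays, 174, 50.2 and 297 in the csn4 arrays, and 266, 242 and 147 in the csn5-labelled arrays, against 427, 547 and 451 in WT, and the mean fell by 1.24 ± 0.27 on the log2 scale (limma adjusted p = 0.000387). All 9 mutant dark arrays of NAI1 lay below the WT dark arrays. By line, NAI1 was called lower in csn5-labelled seedlings in light (-1.27 ± 0.34) and in csn3 (-1.32 ± 0.34) and csn4 (-1.40 ± 0.34) in darkness, contrasts in which 10.4%, 12.0% and 11.2% of all tested probe sets were called lower.

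NAI2 fell in both conditions. Its signals were 745 to 1328 over the 9 mutant light arrays, against 3029, 2983 and 2417 in WT light, a difference of -1.39 ± 0.20 (limma adjusted p = 1.45e-06), which became -0.99 with the GAPDH covariate. In darkness they were 625 to 1523 over the mutant arrays, against 5903, 2889 and 6193 in WT, a difference of -2.21 ± 0.20 (limma adjusted p = 2.79e-10). The WT dark array at 2889 was the one with the GAPDH ratio of 19.7.

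The jacalin-related lectins JAL33 and JAL34 lie in a gene cluster with PBP1, the PYK10-binding protein. JAL33 had signals of 450 to 1110 in the mutant light arrays, against 5944, 7269 and 5635 in WT light, and of 410 to 2101 in the mutant dark arrays, against 11388, 14170 and 15125 in WT dark. The mean differences were -2.84 ± 0.23 in light (limma adjusted p = 9.01e-11) and -3.74 ± 0.23 in darkness (limma adjusted p = 2.44e-13). JAL34 had signals of 832 to 1478 in the mutant light arrays, against 5259, 4851 and 4716 in WT light, and of 998 to 1971 in the mutant dark arrays, against 14008, 15677 and 14002 in WT dark. Its differences were -2.18 ± 0.16 in light (limma adjusted p = 8.85e-12) and -3.32 ± 0.16 in darkness (limma adjusted p = 1.16e-15). Mutant and WT arrays did not overlap for either lectin in either condition. The mutant means were 13.7% of the WT mean for JAL33 and 21.5% for JAL34 in light, and 7.96% for JAL33 and 9.93% for JAL34 in darkness.

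**Figure D4:**
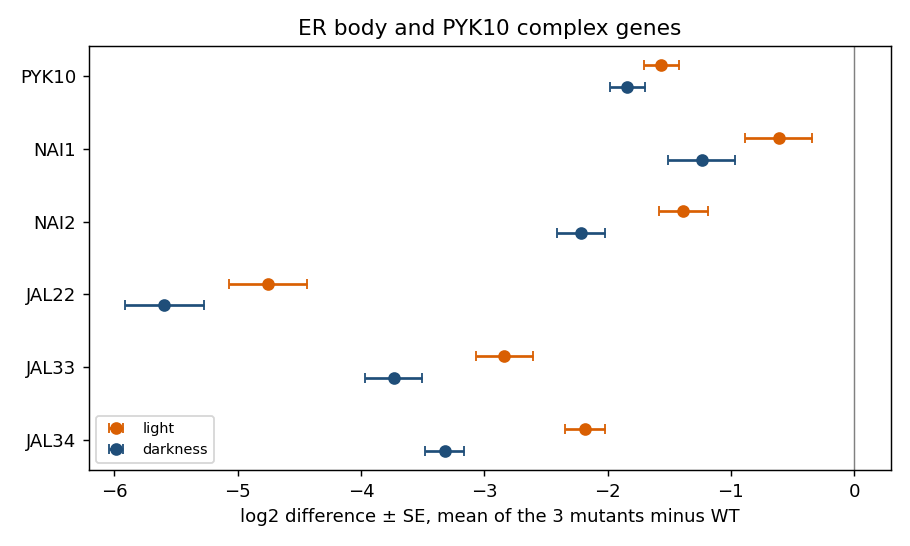
Log2 difference of the mean of the 3 mutants minus WT for the 6 tested genes of the ER body and PYK10 complex list, with the standard error of the fit (9 mutant and 3 WT arrays per condition), light above darkness for each gene. All values lie below 0; NAI1 in light, at -0.61, did not pass the test, and JAL22 lies at -4.75 in light and -5.60 in darkness.

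In WT these genes were also lower in light than in darkness. JAL33 changed by -1.10 ± 0.29 (limma adjusted p = 0.00318) and JAL34 by -1.55 ± 0.20 (limma adjusted p = 3.17e-07), and both were called. NAI1 had a difference of -0.92 ± 0.34 (limma adjusted p = 0.0326) and NAI2 of -0.75 ± 0.24 (limma adjusted p = 0.0164), under the size for a call. NAI2 reached that size with the GAPDH covariate (-1.02) and without WT dark array 2 (-1.10), and NAI1 without WT light array 2 (-1.03). With JAL22, 3 of the 6 list genes were called lower in WT light, where 9.77% of all tested probe sets were. Over the mutants, 1 list gene was called in light against darkness in csn4 (JAL22), 1 in csn5-labelled seedlings (NAI1, -1.21 ± 0.34) and 0 in csn3 (limma, with 0 of the 6 at an unadjusted p under 0.05). In these contrasts 3.49% of all tested probe sets were called in csn4, 3.82% in csn5-labelled seedlings and 0.880% in csn3. The share called lower was 1.36% in csn4 and 1.38% in csn5-labelled seedlings. Between mutants, JAL33 was lower in csn4 than in csn5-labelled darkness by -1.23 ± 0.29 (limma adjusted p = 0.0188), the 1 pair difference called in the list, where 0.560% of all tested probe sets were called lower. That JAL33 call was lost with the GAPDH covariate (-0.92), with the actin covariate (-1.15), without the 3 arrays of high GAPDH ratio (-0.96) and, down to -0.96, on leaving out single arrays. Leaving out single arrays also brought the NAI1 response of csn5-labelled seedlings to as little as -0.93, without a call.

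The gene families of both genes were read next. Of 7 genes with a JAL symbol, 4 had their own probe set and 3 were tested, and leaving out JAL22 these were JAL33 and JAL34, described above, 2 of 2 called lower in both conditions. Of 47 beta-glucosidase genes with a BGLU number, 22 had their own probe set and 17 were tested. Leaving out PYK10, 5 of 16 were called higher and 3 lower in light, and 1 was called higher and 2 lower in darkness. Over all tested probe sets 11.4% were called higher and 9.21% lower in light, and 13.5% higher and 11.7% lower in darkness, so the dark counts of this family were near the background. In light BGLU40 (2.81 ± 0.16), BGLU19 (2.25 ± 0.23), BGLU25 (1.98 ± 0.20), BGLU27 (1.38 ± 0.40) and BGLU45 (1.10 ± 0.29) rose, and BGLU33 (-2.63 ± 0.20), BGLU28 (-1.67 ± 0.28) and BGLU44 (-1.53 ± 0.18) fell. In darkness BGLU40 rose (2.01 ± 0.16), and BGLU46 (-1.50 ± 0.23) and BGLU16 (-1.62 ± 0.15) fell. BGLU45 was not called with quantile normalization (0.78), with the GAPDH covariate (0.82) or without WT light array 1 (0.97), and BGLU27 was not called with the actin covariate (1.08). BGLU27 was also dim, at 2.40 to 5.70 in WT light and under 100 in 6 of 9 mutant light arrays, with the highest at 483. It passed the filter on low signals through mutant arrays alone, so its place among the 5 is a description. In darkness 2 genes were called higher with a pseudocount of 1, with the GAPDH covariate or without WT dark array 3. The median of the 16 was 0.49 in light and 0.17 in darkness, against 0.18 and 0.18 over all tested probe sets. The dim members ATA27, BGLU29, BGLU31, BGLU32 and BGLU43 were not tested.

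The substrate side was barely covered. Of 12 genes of indole glucosinolate synthesis, UGT74B1, a glucosyltransferase of the glucosinolate core pathway, was the 1 with its own probe set. It had signals of 321 to 939 in mutant light arrays, against 629, 759 and 515 in WT light, and the groups overlapped. In darkness its signals were 189 to 344 in mutant arrays, against 626, 421 and 948 in WT, a difference of -1.16 ± 0.20 (limma adjusted p = 1.91e-05) that was -0.89, under the size for a call, without WT dark array 3. Of 13 genes of the classical myrosinase system, none had a probe set of its own.

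By Pearson correlation of log2 signals over the 8 group means, among 10616 tested probe sets that name 1 gene, the genes most like PYK10 were JAL33 (0.986), ARLA1D (0.982), an ARF-like small GTPase, ZW9 (0.976), NAI2 (0.974) and AT1G32410 (0.974). JAL22 ranked 16 in that order, with 0.966. The genes most like JAL22 were AT5G11420 (0.995), SWEET11 (0.994), a sucrose exporter of phloem tissue, AT2G46220 (0.993), ATG8E (0.991), an autophagy protein, and AT2G05540 (0.990), and PYK10 ranked 79. Of the 5 closest genes, 2 of those for PYK10 are on the ER body list and none of those for JAL22. These correlations rest on 8 points, of which WT holds the highest 2 for both genes.

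Neighbouring genes were read by gene order in the TAIR10.1 gene table. JAL22 lies between AT2G39300 and AT2G39320, which had differences of 0.31 and 0.06 in light and of 0.43 and -0.12 in darkness, none passing the test, and the next gene on, JAL23, was too dim. PYK10 lies next to AT3G09250, which was not called in light (0.46 ± 0.16) and was higher in the mutants in darkness (1.16 ± 0.16, limma adjusted p = 9.17e-07). AT3G09280, 2 genes on from PYK10, had differences of -0.16 in light and 0.13 in darkness, neither passing.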

How the data were processed

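Per the submitters' processing notes, MAS5 gave the deposited values, an intensity for each probe set on a linear scale. Its version, scaling target and any filter are not given in the sources used here. Each of the 24 arrays was rescaled to a trimmed mean of 500 (2% trimmed), and log2 was taken after adding 50. Leaving out 64 control probe sets of 22810, the test covered 18751 of the remaining 22746, those reaching a signal of 100 on 3 or more arrays. Using limma 3.58.1 in R 4.3.3, 1 mean per group was estimated from all arrays together, with an intensity trend in eBayes. All p-values were Benjamini-Hochberg adjusted over the tested probe sets, and a call required an adjusted p below 0.05 plus a log2 change of 1 or more either way. The fit was tested on simulated data. The number of arrays limits the precision.

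Names came from the platform table, updated through a TAIR10.1 gene table used for names and gene order. One gene was named by 13513 probe sets (13436 matched the gene table), several by 503, and 8730 were unnamed here. The text names PYK10, JAL22, measured members of the ER body list and of the JAL and BGLU families, up to 4 members of each other list, CSN genes, the 5 genes most like each, and neighbours. PYK10, JAL22 and all lists were chosen with earlier results of these data known. The csn3 dark array called replicate 3 repeats the number 1 in its title. Same-numbered arrays of different groups did not deviate together (median r = 0.014 over 77 pairs), so numbers were not taken as pairs. Alternatives were other pseudocounts, quantile normalization, filters, fits, covariates and leaving out each array.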

Additional observations from a re-analysis of the deposited data

Results flagged for a closer look

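The interaction with light asks whether the difference between a mutant and WT differed between light and darkness. Outside PYK10 and JAL22, it was read for the other 4 tested genes of the ER body list and for UGT74B1, in each of 3 mutants. It passed the p threshold for 6 gene and mutant pairs. Interactions were called, which also requires the size, for 16.2% of tested probe sets in csn3, 18.2% in csn4 and 20.8% in csn5-labelled seedlings, so such interactions were common on these arrays. JAL34 had an interaction of 1.29 ± 0.28 in csn3 (limma adjusted p = 0.000901) and of 1.41 ± 0.28 in csn4 (limma adjusted p = 0.000311). NAI2 had 1.02 ± 0.34 in csn3 (limma adjusted p = 0.0326) and 0.94 ± 0.34 in csn4 (limma adjusted p = 0.0470, under the size for a call). JAL33 had 1.11 ± 0.40 in csn4 (limma adjusted p = 0.0473), and UGT74B1 had 1.57 ± 0.35 in csn5-labelled seedlings (limma adjusted p = 0.000963). A positive value means a smaller fall, or a larger rise, relative to WT in light than in darkness. The JAL33 call was lost in most alternatives, and NAI2 in csn3 fell to 0.83 without WT dark array 3. Every interaction compares arrays of different accession ranges, and the part of that in these values was not tested.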

How the results depend on the processing

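All 16 differences of PYK10 and JAL22 between mutants and WT kept their sign in every setting, and 11 values moved by more than the residual SD. Quantile normalization put the median over all tested probe sets at 0.02 in light and 0.05 in darkness for the mean of the mutants. With it, the PYK10 differences were -2.17 in csn3, -2.46 in csn4, -1.93 in csn5-labelled seedlings and -2.19 for their mean in darkness, and -1.50 in csn3 and -1.92 in csn5-labelled seedlings in light. For JAL22 in light, a pseudocount of 16 gave -5.63 in csn4, and a pseudocount of 1 gave -5.03 in csn3, -6.11 in csn4, -5.63 in csn5-labelled seedlings and -5.59 for the mean, since dim signals weigh more. The JAL22 fall in csn4 light against darkness was not called without the intensity trend (-1.29, adjusted p = 0.0652), with the actin ratio as a covariate (-1.05, adjusted p = 0.142) or without the 3 arrays of GAPDH ratio above 20 (-0.79), an alternative added after the data were seen, as was the GAPDH covariate. The JAL22 interaction in csn3 passed when only its groups were fitted (1.15, adjusted p = 0.0315). Differences that passed no test changed sign as follows. The JAL22 interaction in csn4 was -0.22 with a pseudocount of 1, and the PYK10 interaction in csn5-labelled seedlings was 0.0032 with quantile normalization. For JAL22 in darkness, csn3 minus csn4, csn3 minus csn5-labelled and csn4 minus csn5-labelled were 0.11, -0.083 and -0.20 with quantile normalization, and 0.043, -0.018 and -0.062 with the actin covariate. With the replicate block, csn3 minus csn4 was 0.37, and the block changed no call. Without the 3 arrays, csn3 minus csn5-labelled was -0.17 and csn4 minus csn5-labelled -0.049 in darkness and 0.17 in light. Leaving out each array, the JAL22 csn4 response ran from -1.73 to -0.94 and lost its call without csn4 dark array 2, csn4 dark array 3 or csn4 light array 2, and the csn5-labelled response ran from -1.42 to -0.54, called without csn5-labelled dark array 3. PYK10 light responses ran from -0.029 to 0.12 in csn3 and from -0.099 to 0.23 in csn4, and csn4 minus csn5-labelled in light from -0.074 to 0.19. JAL22 differences in darkness ran from -0.50 to 0.31 for csn3 minus csn4, from -0.38 to 0.50 for csn3 minus csn5-labelled and from -0.32 to 0.56 for csn4 minus csn5-labelled, which in light ran from -0.39 to 0.17. The ER body list, PYK10 and JAL22 included, had 6 genes lower in darkness in all settings, and in light 5, or 4 with the GAPDH covariate. The JAL33 interaction in csn4 lost its call in most settings, and those of JAL34 kept theirs. Signals of JAL22 near 100 in mutants limit what can be said of differences between mutants.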
